A study of Mus musculus with 6 samples.

Results

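The genes described here make cholesterol and fatty acids or control that synthesis, and they were followed in embryonic stem cells of the mouse that carry or lack the gene Max. Max is the protein with which MYC proteins pair in order to bind DNA. The 34 members were named by gene symbol: 18 enzymes of the cholesterol branch, 9 of the fatty acid branch, 5 regulators of the SREBP system and 2 sterol transport genes. All 34 were found among the 55536 Ensembl genes of the tables, and all 34 passed the filter on low values (a group mean of 1 FPKM or more in WT, in Max-KO or in both), with none under that level in either group. RNA was sequenced from C57BL/6 embryonic stem cells, 3 libraries of wild type genotype (WT) and 3 of genotype Max-/- (Max-KO). The labels do not say how Max was removed, whether the cells are 1 clone, in which medium or on which support they grew, or whether the 3 libraries of a group came from separate cultures. The p-values therefore measure only the spread between these samples, which may be technical.

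Cholesterol is built from acetyl-CoA through mevalonate, farnesyl diphosphate and squalene, and long-chain fatty acids are built from the same acetyl-CoA by carboxylation, chain extension and desaturation. The genes of both routes are targets of the sterol regulatory element binding proteins SREBP-1 and SREBP-2, which are made as precursors in the endoplasmic reticulum membrane. SCAP escorts the precursors to the Golgi for cleavage when sterols are scarce, and INSIG proteins hold SCAP back when sterols are plentiful. Dividing stem cells make membrane lipid by these routes.

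Levels were taken as FPKM, fragments per kilobase of transcript scaled to the mapped fragments of the library, and are the values deposited by the authors. Summed FPKM ran from 743406 to 774405 in the WT libraries and from 645169 to 658361 in the Max-KO libraries. Because FPKM already divides by sequencing depth, the counts behind a value are unknown. Each difference is the Max-KO mean less the WT mean of log2(FPKM + 1), from a limma fit over 14661 genes, and calls needed a p adjusted by Benjamini-Hochberg of under 0.05. A fall or rise of at least 2-fold means a called difference of 1 or more in size on this log2 scale. Of all genes tested 66.2% were called, 23.2% lower and 43.0% higher in Max-KO, and the median difference of all genes was 0.21. That median depended on the scaling, at 0.029 with median-ratio scaling, 0.43 with values rescaled to TPM and −0.017 with quantile normalization. The higher genes were 64.9% of all calls, against 51.0%, 77.7% and 46.7% under these scalings. Max itself was listed at 41.6, 50.2 and 42.3 FPKM in WT 1 to 3 and at 35.8, 39.6 and 43.4 FPKM in Max-KO 1 to 3, and a gene-level FPKM does not show a missing exon, so it does not check the labels.

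Markers of embryonic stem cells were present in every library: 8 of 10 were higher in Max-KO and none lower, with Pou5f1, one of those not called, at 864 to 943 FPKM in WT and 962 to 1030 in Max-KO. Germ cell markers rose in 6 of 6 cases, and their summed level was 27.0 to 32.95 FPKM in WT and 879 to 932 in Max-KO. Trophoblast markers summed to 4.47 to 5.54 FPKM in WT and 15.3 to 21.7 in Max-KO (5 of 7 tested, all 5 higher), and primitive endoderm markers to 1.99 to 2.45 and 5.82 to 10.6 FPKM (4 of 8 tested, all 4 higher). Visceral endoderm markers summed to 1.84 to 3.66 and 5.46 to 6.14 FPKM (2 of 6 tested, 1 higher), and fibroblast markers to 8.11 to 8.38 and 8.11 to 10.3 FPKM (2 of 8 tested, 1 higher). Of all genes tested 43.0% were called higher. Elf5, Gata3, Krt7, Gata4, Sox17, Pdgfra, Apom and Tex101 passed the filter only through Max-KO. Their direction was thus largely set by the filter, and the counts of higher markers that include them are no separate support. Neural markers fell in 3 of 3 tested cases of 5. Their sum was 122 to 140 FPKM in WT and 64.2 to 68.4 in Max-KO, most of it Tubb3 (means 117 and 60.5 FPKM). Sox1, which was not tested, went the other way, from a mean of 0.17 to 0.58 FPKM. Of the 5 mesoderm markers only Kdr was tested, and it fell, but it passed the filter only through WT. Prl3d1 and Hbb-bh1 were listed at 0 in all 6 libraries, and Ttr and Neurog2 at 0 in WT. The part of these markers in the results that follow was not tested, and in bulk RNA fewer cells of a type and less RNA per cell cannot be told apart.

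The members' promoters are shown first, because the members include genes that moved together and genes that moved apart. RefSeq promoter windows (build GRCm38.p6, 250 bases before to 50 after each annotated start) were found for 27 members, in 35 windows, and none for Fdps, Fdft1, Sqle, Stard4, Scd1, Scd2 and Fads1. The 4 stretches printed are the 180 bases before the start of Hmgcs1 (chr13:119690171-119690350, plus strand), Fasn (chr11:120824548-120824727, minus strand), Insig1 (chr5:28071232-28071411, plus strand) and Abca1 (chr4:53159896-53160075, minus strand). Hmgcs1 carries a match to the sterol regulatory element letters. Fasn had the lowest difference of all members, Insig1 the lowest of the regulators and Abca1 the highest of all members. Each is written 5′ to 3′ on the gene's own strand, with capitals marking matches on either strand to CACGTG (the E-box bound by MYC-MAX), TCACNCCAC (sterol regulatory element), CCAAT (the NF-Y box) and GGGCGG (the GC box).
Hmgcs1: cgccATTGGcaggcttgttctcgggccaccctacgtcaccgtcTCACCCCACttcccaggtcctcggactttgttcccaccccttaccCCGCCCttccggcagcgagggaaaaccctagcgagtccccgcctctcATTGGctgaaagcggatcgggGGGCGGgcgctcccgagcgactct
Fasn: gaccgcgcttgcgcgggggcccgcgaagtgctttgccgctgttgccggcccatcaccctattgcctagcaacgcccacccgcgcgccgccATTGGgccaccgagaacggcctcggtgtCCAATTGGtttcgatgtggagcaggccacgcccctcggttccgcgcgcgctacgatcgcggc
Insig1: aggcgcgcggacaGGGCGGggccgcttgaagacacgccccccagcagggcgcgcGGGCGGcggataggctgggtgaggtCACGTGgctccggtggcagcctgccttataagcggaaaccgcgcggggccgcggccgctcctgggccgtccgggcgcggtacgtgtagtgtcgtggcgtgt
Abca1: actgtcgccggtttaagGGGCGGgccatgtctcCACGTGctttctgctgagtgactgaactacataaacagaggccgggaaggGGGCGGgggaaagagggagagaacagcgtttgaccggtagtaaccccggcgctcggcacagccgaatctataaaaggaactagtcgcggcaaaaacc

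The CACGTG E-box was in 7 of the 35 windows (20.0%, against 7.15% of all 32851 windows of the table). Those windows belonged to Insig1, Abca1, Hsd17b7, Sc5d, Dhcr7 and Scap, the last with the same site seen from a pair of starts. Both Insig1, which was lower in Max-KO, and Abca1, which was higher, carried this motif. The 6 genes had a median difference of −0.35, against −0.72 for the 21 members without it. Of these 6 genes, 3 are regulators or transport genes. Among all tested genes with a window the medians were 0.086 with CACGTG and 0.18 without. The members' medians with and without CCAAT were −0.72 and 0.017, and for GGGCGG −0.50 and −1.46. Of the 27 matched members, 21 carried CCAAT and 23 GGGCGG, so the medians without them rest on few genes. Those without GGGCGG were Pmvk, Fasn, Acaca and Elovl6, with differences from −2.02 to 0.36. Among all tested genes with a window the medians with and without were 0.15 and 0.18 for CCAAT and 0.13 and 0.26 for GGGCGG. None of these splits was tested. TCACNCCAC was in 1 window, that of Hmgcs1, 137 bases before the start (2.86%, against 1.24% of all windows). Only this string was searched, so a window without it is not shown to lack a sterol regulatory element. CCAAT stood in 22 of 35 windows (62.9%, against 37.4% of all windows), in 14 of 15 matched cholesterol branch genes and in 3 of 6 matched fatty acid genes. The Fasn stretch holds 3 CCAAT matches, of which a pair on opposite strands overlaps. GGGCGG was in 27 of 35 windows (77.1%, against 35.7%). Counted by gene, 77.8% of the 27 matched members carried CCAAT, 85.2% GGGCGG, 22.2% CACGTG and 3.70% TCACNCCAC. Among all genes tested that have a window these shares were 44.0%, 68.0%, 11.8% and 1.41%. A match is a description of these letters and not a bound site.

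All 18 enzymes of the cholesterol branch were lower in the Max-KO libraries, where 23.2% of all genes tested were called lower. Groups did not overlap for any of the 18, against 25.7% of all genes lower without overlap, and 6 fell at least 2-fold, which 4.86% of all genes did. The median difference of the branch was −0.91, or −1.12 relative to the median of all genes. The summed FPKM of the branch came to 820, 819 and 862 in WT and to 371, 384 and 386 in Max-KO. That is a 2.19-fold fall in the group means, not scaled for the lower summed FPKM of the Max-KO libraries. Of all FPKM in a library, the branch held 0.110%, 0.109% and 0.111% in WT and 0.0576%, 0.0589% and 0.0586% in Max-KO.

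**Figure D1:**
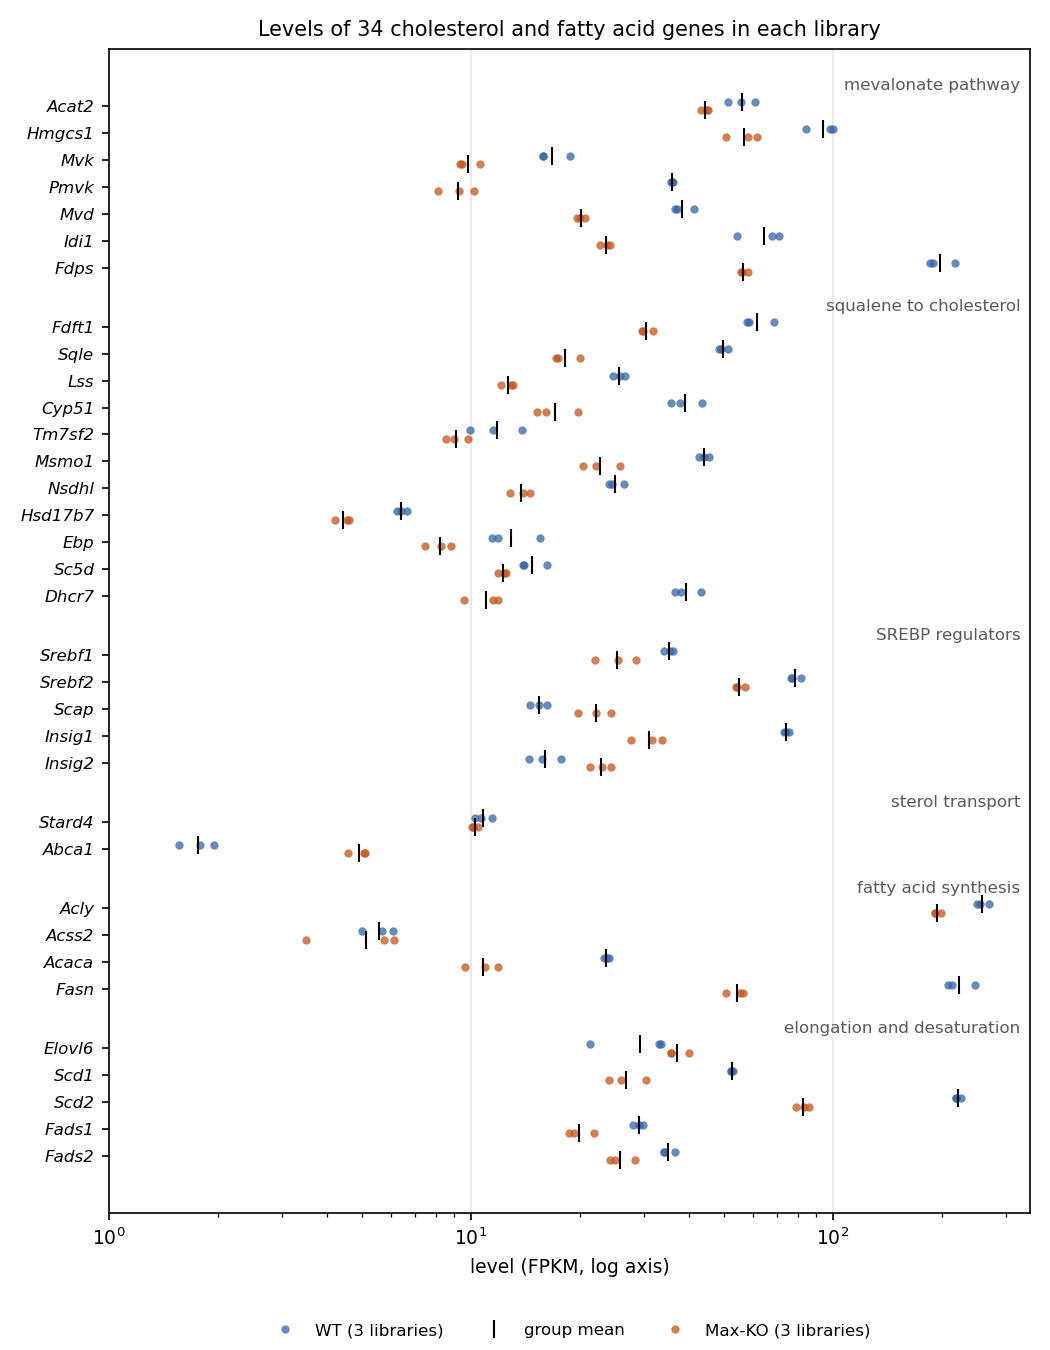
Level of each of the 34 genes in each library, in FPKM on a log axis, grouped by role, with blue points for the 3 WT libraries, orange points for the 3 Max-KO libraries and a black bar at each group mean. All 18 cholesterol branch genes have their Max-KO points below their WT points, while Scap, Insig2, Abca1 and Elovl6 have them above and Stard4 and Acss2 overlap.

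The mevalonate steps fell in 7 of 7 cases. Pmvk, the kinase that makes mevalonate diphosphate (ENSMUSG00000027952; GRCm38 chromosome 3, 89454541 to 89469013, plus strand), was listed at 35.8, 35.9 and 36.3 FPKM in WT 1 to 3 and at 9.29, 10.2 and 8.12 FPKM in Max-KO 1 to 3. Its WT libraries were nearly level and every Max-KO library was far below them. The difference was −1.86 ± 0.09 (SE; limma adjusted p = 6.49e-06), and 0.723% of tested genes had a difference as low or lower. Fdps, which joins the 5-carbon units into farnesyl diphosphate (chromosome 3, 89093588 to 89101959, minus strand), went from 189, 186 and 217 FPKM to 55.9, 55.7 and 58.2 FPKM. It was the most abundant enzyme of the branch in WT, and its Max-KO libraries were nearly level. For Fdps the difference was −1.78 ± 0.07 (limma adjusted p = 3.64e-06).

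Idi1, the isomerase just before Fdps (chromosome 13, 8885501 to 8892451, plus strand), stood at 67.9, 71.2 and 54.3 FPKM in WT and 22.8, 23.7 and 24.2 FPKM in Max-KO. WT 3 was the lowest WT library and still above every Max-KO library (difference −1.41 ± 0.10, limma adjusted p = 3.74e-05). Idi1 has 684 bases identical to the processed pseudogene Gm13502, which was listed at up to 11.8 FPKM, so reads could have been divided between them. Acat2, Hmgcs1, Mvk and Mvd had smaller differences than Pmvk, Idi1 and Fdps. Hmgcs1, the synthase that makes HMG-CoA, was 97.9, 100.3 and 84.3 FPKM in WT and 58.3, 61.6 and 50.7 FPKM in Max-KO (difference −0.72 ± 0.10). Mevalonate kinase Mvk went from 16.8 ± 1.73 to 9.78 ± 0.702 FPKM (SD, n = 3, difference −0.72) and the decarboxylase Mvd from 38.4 ± 2.57 to 20.1 ± 0.510 FPKM (difference −0.90). Acat2, the thiolase that starts the route, had the smallest fall of the 7, from 56.0 ± 4.86 to 44.4 ± 1.12 FPKM (difference −0.32, limma adjusted p = 5.95e-03). That call was lost after rescaling to TPM (−0.12, adjusted p = 0.161), and Acat2 shares 1477 bases at 97.7% identity with Acat3, listed at up to 2.40 FPKM, and 445 bases on the opposite strand at 98.7% identity with Tcp1, listed at up to 308 FPKM.

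From squalene to cholesterol, 11 of 11 enzymes fell. Dhcr7, the reductase of the last step (chromosome 7, 143823145 to 143848410, plus strand), was listed at 38.2, 36.7 and 43.2 FPKM in WT and 9.58, 11.5 and 11.9 FPKM in Max-KO. The lowest WT library was above 3 times the highest Max-KO library, with a difference of −1.75 ± 0.10 (limma adjusted p = 1.31e-05). Sqle, the squalene epoxidase (chromosome 15, 59315077 to 59331192, plus strand), was 48.6, 49.2 and 51.2 FPKM in WT and 17.4, 17.2 and 20.0 FPKM in Max-KO. Neither group of Sqle values spread over more than 3 FPKM, and the difference was −1.40 ± 0.07 (limma adjusted p = 9.63e-06). Cyp51, the lanosterol demethylase (chromosome 5, 4081145 to 4104746, minus strand), was 35.7, 37.7 and 43.4 FPKM in WT and 15.2, 16.1 and 19.7 FPKM in Max-KO. WT 3 and Max-KO 3 were the highest of their groups, and the groups stayed apart (difference −1.15 ± 0.11, limma adjusted p = 1.39e-04).

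Fdft1, which makes squalene, fell from 61.8 ± 5.98 to 30.5 ± 1.195 FPKM (SD, n = 3) and Lss, which closes the sterol rings, from 25.7 ± 0.968 to 12.7 ± 0.541 FPKM, with differences of −0.99 and −0.96. The C4-demethylation enzymes Msmo1, Nsdhl and Hsd17b7 had differences of −0.93, −0.82 and −0.45. Ebp, the sterol isomerase, was 12.9 ± 2.24 FPKM in WT and 8.19 ± 0.690 in Max-KO (difference −0.59). The smallest falls were in Tm7sf2, a sterol reductase, and in Sc5d, the desaturase just before Dhcr7. Tm7sf2 was listed at 13.9, 11.5 and 9.95 FPKM in WT and 8.55, 9.79 and 9.0 FPKM in Max-KO, so that WT 3 lay just above Max-KO 2. Its difference of −0.33 ± 0.12 was just inside the threshold (limma adjusted p = 0.0498) and was not called without WT replicate 1 (adjusted p = 0.143) or WT replicate 2 (0.0949), nor without Max-KO replicate 1 (0.131), 2 (0.0648) or 3 (0.110). It also missed the threshold after rescaling to TPM (−0.14, adjusted p = 0.40), with no filter (0.0927), without trend and robust moderation (0.0581) and with the replicate number as a block (0.0689). Tm7sf2 shares exon sequence with Vps51 on the same strand. Sc5d was 14.1, 16.2 and 13.9 FPKM in WT and 11.9, 12.5 and 12.3 FPKM in Max-KO, with a difference of −0.25 ± 0.08 (limma adjusted p = 0.0315). The call of Sc5d was lost without WT replicate 2 (adjusted p = 0.102) or Max-KO replicate 1 (0.0845), 2 (0.0624) or 3 (0.0647), with no filter (0.0576), and after rescaling to TPM (−0.047, adjusted p = 0.646). Fdft1 overlaps Ctsb on the opposite strand (774 bases, up to 53.2 FPKM) and Cyp51 overlaps Akap9 (up to 7.34 FPKM). Whether the libraries kept the strand is not stated in the labels, and reads of these overlaps cannot be told apart without it.

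**Figure D2:**
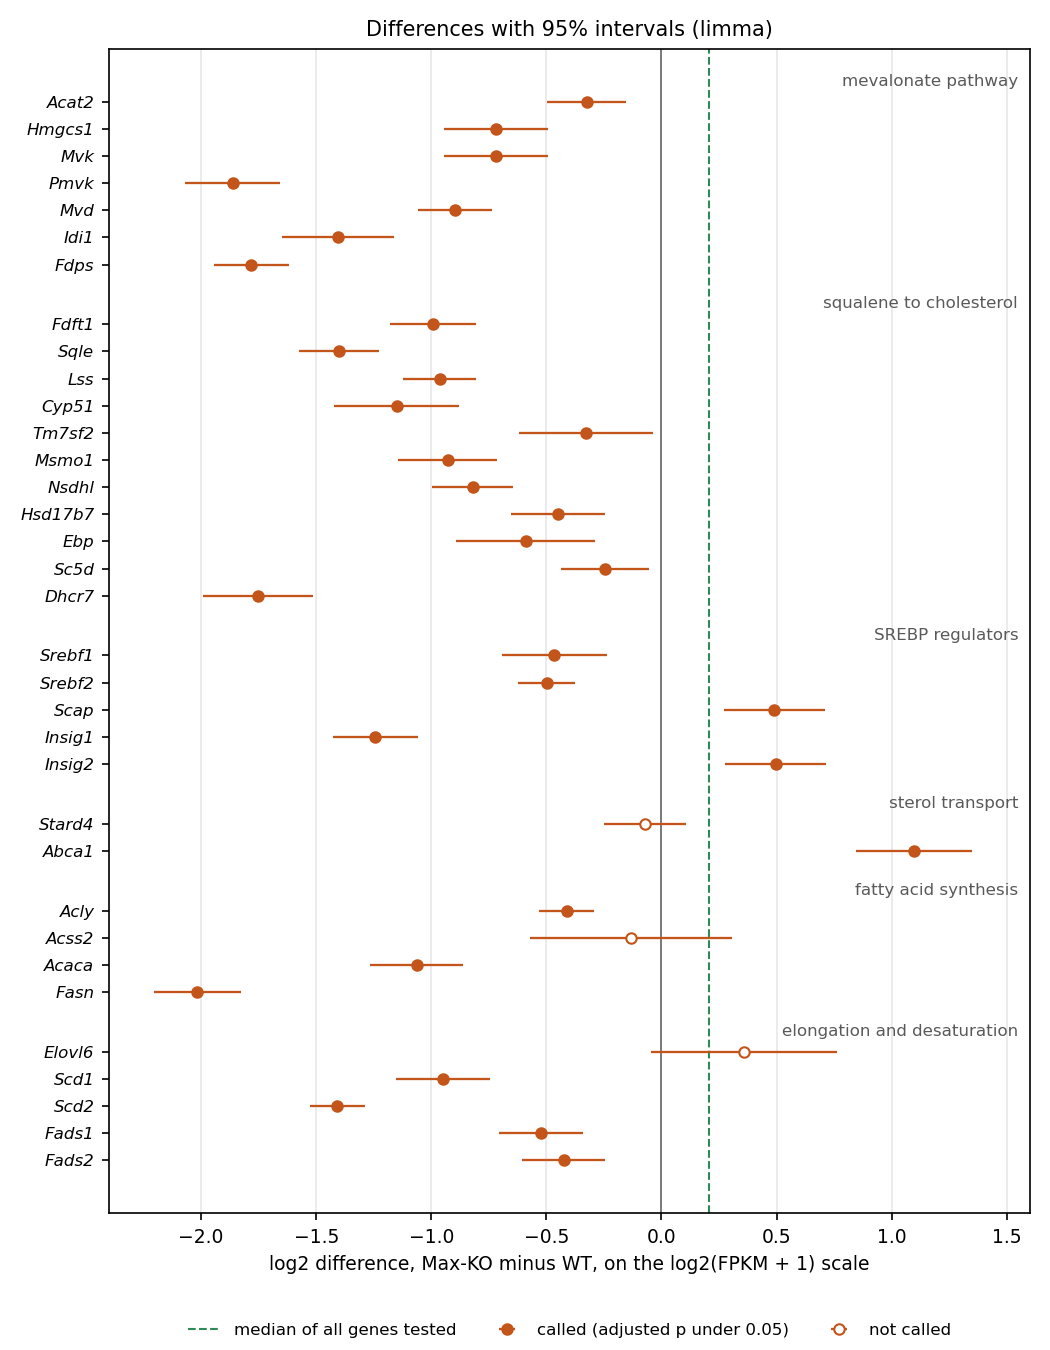
Difference of each gene, Max-KO less WT as log2(FPKM + 1), with its 95% interval from limma, filled where the adjusted p was under 0.05, with the median of all genes tested (0.21) as a dashed line. Fasn lies lowest at −2.02 and Abca1 highest at 1.098, and the intervals of Stard4, Acss2 and Elovl6 cross 0.

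The fatty acid branch fell in 7 of 9 cases, with none called higher, beside the same background of 23.2% of all genes lower. Of the 9, 3 fell at least 2-fold, which 4.86% of all genes did. Its median difference was −0.52, or −0.73 relative to all genes, smaller than that of the cholesterol branch. The range within it was wider, from −2.02 for Fasn to 0.36 for Elovl6, against −1.86 to −0.25 in the cholesterol branch. Summed over its 9 genes the level was 860, 861 and 914 FPKM in WT and 449, 449 and 472 in Max-KO, a 1.92-fold fall. Of all FPKM in a library, this sum was 0.116%, 0.115% and 0.118% in WT and 0.0696%, 0.0689% and 0.07175% in Max-KO. Fasn, Scd2 and Acly held 80.0% of that sum in WT and 72.5% in Max-KO, so the sum mostly follows these genes. Whether the branches differ from each other was not tested, since genes of a branch are not replicates.

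Fasn, the fatty acid synthase (ENSMUSG00000025153; GRCm38 chromosome 11, 120805846 to 120824547, minus strand), was listed at 209, 213 and 247 FPKM in WT 1 to 3 and at 50.8, 56.5 and 55.5 FPKM in Max-KO 1 to 3. Every Max-KO library was far below every WT library, and WT 3 was the highest. The difference of −2.02 ± 0.08 (limma adjusted p = 3.87e-06) was the lowest of all members, and 0.566% of tested genes lay as low or lower. Acaca, the acetyl-CoA carboxylase that commits carbon to this route (chromosome 11, 84129672 to 84401651, plus strand), went from 23.3, 23.7 and 24.0 FPKM to 11.0, 11.9 and 9.65 FPKM. The WT values of Acaca lay within 1 FPKM of each other, and the difference was −1.06 ± 0.09 (limma adjusted p = 5.29e-05). The enzymes that supply acetyl-CoA moved less. Acly, which cleaves citrate, fell from 258.5 ± 10.6 to 193.9 ± 4.06 FPKM (SD, n = 3, difference −0.41 ± 0.05, limma adjusted p = 3.89e-04), and remained the most abundant of all 34 genes. Acss2, which activates acetate, was 6.08, 5.69 and 4.99 FPKM in WT and 3.49, 5.74 and 6.13 FPKM in Max-KO. Max-KO 1 was the lowest library and the groups overlapped, with a difference of −0.13 and a 95% interval of −0.57 to 0.31 (limma adjusted p = 0.553). Its sign depended on the setting: without Max-KO replicate 1 the log2 difference of Acss2 was 0.077 and after rescaling to TPM 0.048, while under quantile normalization it was −0.50 (adjusted p = 0.0496). Acss2 overlaps Gss and Ggt7 on the opposite strand, listed at up to 14.6 and 4.79 FPKM.

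Of the enzymes that lengthen and desaturate fatty acids, 4 of 5 fell. Scd2, a stearoyl-CoA desaturase (chromosome 19, 44293674 to 44306864, plus strand), was listed at 219, 219 and 227 FPKM in WT and 83.4, 79.3 and 86.0 FPKM in Max-KO. No member had a smaller standard error, 0.05, around its difference of −1.41 than Scd2 among those that fell at least 2-fold (limma adjusted p = 3.10e-06). Its paralog Scd1 was 52.2, 52.4 and 53.0 FPKM in WT and 26.0, 24.1 and 30.4 FPKM in Max-KO, with a difference of −0.95 ± 0.09 (limma adjusted p = 9.54e-05). The log2 ratio of Scd1 over Scd2 went from −2.06 ± 0.0162 to −1.60 ± 0.112 (SD, n = 3), a change of 0.46. An exact 2-sided permutation test over the 6 libraries gave p = 0.10, the smallest it allows, and 0.15 adjusted over the 3 paralog pairs compared. The ratio was higher in 3 of 3 Max-KO libraries than in any WT library. Scd1 and Scd2 share 623 bases at 95.5% identity, so some reads may fit both. The polyunsaturated fatty acid desaturases Fads1 and Fads2 fell from 29.1 ± 0.880 to 19.9 ± 1.75 FPKM and from 35.0 ± 1.49 to 25.9 ± 2.21 FPKM (SD, n = 3), with differences of −0.52 and −0.43. Elovl6, the elongase of saturated chains, was the exception at 33.02, 33.6 and 21.4 FPKM in WT and 40.0, 35.7 and 35.8 FPKM in Max-KO. WT 3 stood well below WT 1 and WT 2, which were close to the Max-KO values, and the difference of 0.36 ± 0.17 was not called (limma adjusted p = 0.102). Without WT replicate 3 the log2 difference of Elovl6 was 0.15 (adjusted p = 0.0913), under median-ratio scaling it was 0.17, and rescaled to TPM it was 0.57 and passed (adjusted p = 0.0312).

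**Figure D3:**
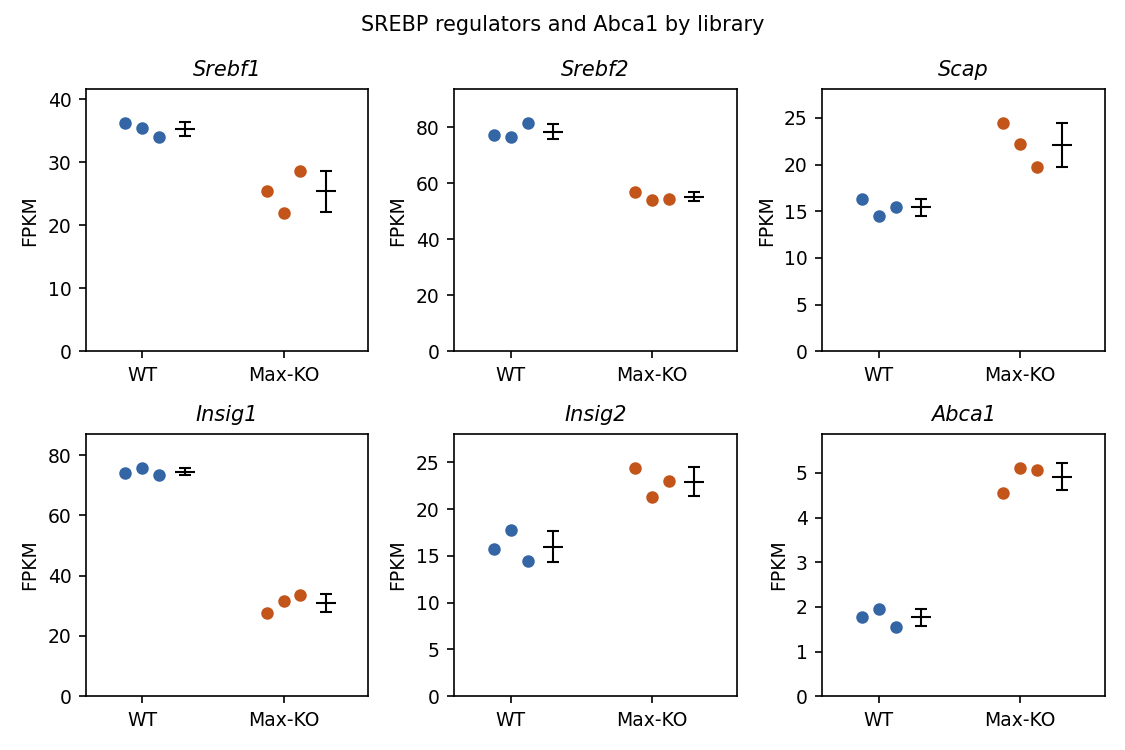
FPKM of the 5 SREBP regulators and of Abca1 in each library (replicates 1 to 3 from left to right, WT blue, Max-KO orange), with the group mean and SD (n = 3) as a black bar, each axis starting at 0. Insig1 falls from 73.4 to 75.7 FPKM in WT to 27.6 to 33.6 in Max-KO while Insig2 goes from 14.5 to 17.8 up to 21.3 to 24.4.

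The regulators split, 3 lower and 2 higher, where 43.0% of all genes were called higher. Srebf2, the gene of the SREBP most tied to cholesterol genes (chromosome 15, 82147181 to 82205379, plus strand), was listed at 77.2, 76.6 and 81.5 FPKM in WT and 57.02, 54.0 and 54.5 FPKM in Max-KO. Srebf1, whose product is most tied to fatty acid genes (chromosome 11, 60199089 to 60222581, minus strand), was 36.2, 35.5 and 34.1 FPKM in WT and 25.5, 22.0 and 28.6 FPKM in Max-KO. Both were lower in every Max-KO library, by −0.50 ± 0.05 for Srebf2 (limma adjusted p = 1.77e-04) and −0.47 ± 0.10 for Srebf1 (4.24e-03). The log2 ratio of Srebf1 over Srebf2 went from −1.13 ± 0.0891 to −1.098 ± 0.179 (SD, n = 3), overlapping between groups, with a change of 0.033 (exact 2-sided permutation p = 1.00, and 1.00 adjusted over the 3 pairs). Gene-level values do not separate the SREBP-1a and SREBP-1c transcripts or show the cleaved protein.

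The INSIG paralogs went in opposite directions. Insig1 (ENSMUSG00000045294; GRCm38 chromosome 5, 28071363 to 28078662, plus strand) was listed at 74.1, 75.7 and 73.4 FPKM in WT and 27.6, 31.6 and 33.6 FPKM in Max-KO, with a difference of −1.24 ± 0.08 (limma adjusted p = 1.83e-05). Insig2 (ENSMUSG00000003721; chromosome 1, 121304353 to 121332589, minus strand) was 15.7, 17.8 and 14.5 FPKM in WT and 24.4, 21.3 and 23.0 FPKM in Max-KO. Its rise of 0.50 ± 0.09 (limma adjusted p = 2.70e-03) stood above the 0.21 of the median gene, and 65.7% of tested genes had a difference as low or lower. Insig1 mRNA was at 4.72, 4.26 and 5.07 times the level of Insig2 in WT and at 1.13, 1.48 and 1.46 times in Max-KO. On the log2 scale the ratio went from 2.16 ± 0.119 to 0.42 ± 0.212 (SD, n = 3), a change of −1.74 with all 3 Max-KO libraries below all 3 WT libraries (exact 2-sided permutation p = 0.10, the smallest the design allows, and 0.15 adjusted over the 3 pairs). Scap, the escort protein (chromosome 9, 110333288 to 110384950, plus strand), rose from 16.3, 14.5 and 15.4 FPKM to 24.4, 22.2 and 19.7 FPKM. The rise of Scap, 0.49 ± 0.09 (limma adjusted p = 2.78e-03), was of the same size as that of Insig2.

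Of the pair of sterol transport genes, Abca1 had the lower level in both groups. Abca1, the exporter that hands cholesterol to apolipoproteins and a target of the oxysterol receptors LXR (ENSMUSG00000015243; GRCm38 chromosome 4, 53030787 to 53159895, minus strand), was listed at 1.78, 1.95 and 1.56 FPKM in WT 1 to 3 and at 4.56, 5.11 and 5.06 FPKM in Max-KO 1 to 3. All Max-KO libraries were above all WT libraries, and the ratio of the group means was 2.78. The difference was 1.098 ± 0.11 on the log2 scale with 1 FPKM added, where changes at low levels come out too small (limma adjusted p = 1.26e-04). Of the 34 members it alone rose at least 2-fold, which 13.9% of all genes did. Stard4, a carrier of cholesterol within the cell, was 10.7, 11.5 and 10.3 FPKM in WT and 10.5, 10.1 and 10.2 FPKM in Max-KO. The groups overlapped, and its difference was −0.0695 with a 95% interval of −0.25 to 0.11 (limma adjusted p = 0.440). It was called lower under median-ratio scaling (−0.25, adjusted p = 0.0200) and quantile normalization (−0.35, adjusted p = 3.94e-03). After rescaling to TPM its sign turned (0.13, limma adjusted p = 0.202).

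Of the 34 members, 28 were lower, 3 higher (Scap, Insig2 and Abca1) and 3 not called (Stard4, Acss2 and Elovl6). Of all genes tested 23.2% were called lower and 43.0% higher. Groups did not overlap in 28 lower and 4 higher members, the fourth being Elovl6, beside 25.7% and 46.3% of all genes. The difference of 18 members was within the lowest 10% of all genes tested, and that of 4 (Fasn, Pmvk, Fdps and Dhcr7) within the lowest 1%. Their median difference was −0.72. Their summed FPKM came to 1912, 1913 and 2007 in the WT libraries and to 995, 999 and 1033 in the Max-KO libraries.

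Other lipid genes were described from 6 lists that hold no member. Of 91 further genes, 90 were found and 80 tested, of which 32 were higher and 23 lower, with a median of 0.08. These counts lie near the shares of all genes tested, 43.0% higher and 23.2% lower, which are also the background for each list that follows. Higher calls were thus 58.2% of the calls, against 35.2% under median-ratio scaling (19 higher, 35 lower), 67.8% after rescaling to TPM (40 and 19) and 32.7% under quantile normalization (18 and 37). So the direction that held more calls depended on the scaling for these genes, while in the members lower calls were the larger group under each of the same scalings.

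**Figure D4:**
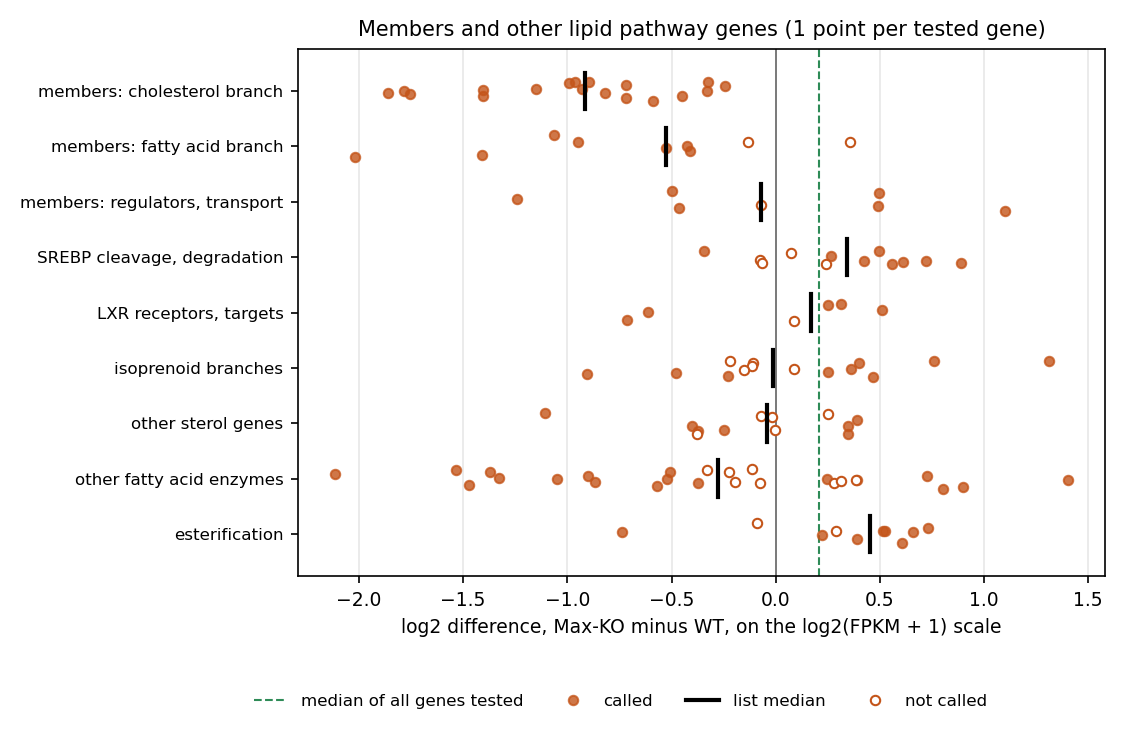
Difference of each tested gene (1 point per gene, filled where called, black bar at the list median), Max-KO less WT as log2(FPKM + 1), for the members and for 6 lists of other lipid genes, with the median of all genes tested as a dashed line at 0.21. All points of the cholesterol branch lie below 0, and the points of esterification and of SREBP cleavage lie mostly above it.

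Genes that cleave SREBP or degrade sterol-regulated proteins had 7 of 12 higher and 1 lower, with a list median of 0.34, beside 43.0% and 23.2% of all genes and their median of 0.21. Erlin2, a membrane protein of the endoplasmic reticulum that takes part in this degradation, rose from 14.8 ± 0.165 to 25.0 ± 0.878 FPKM (SD, n = 3, difference 0.72 ± 0.06). Vcp, the ATPase that extracts proteins for degradation, fell from 251 ± 15.6 to 197 ± 1.57 FPKM, a call lost under quantile normalization (−0.10, adjusted p = 0.0728). In the list of LXR receptors and targets 3 of 6 tested members rose and 2 fell, near the shares of all genes, and Nr1h3, Nr1h5 and Abcg4 were under the filter. Abcg1, a sterol exporter like Abca1, rose from 4.03 ± 0.257 to 6.18 ± 0.755 FPKM (difference 0.51), but not under quantile normalization (0.12, adjusted p = 0.365). Mylip, a ligase induced by LXR, fell from 4.71 ± 0.332 to 2.73 ± 0.261 FPKM, and the receptor partner Rxrb from 23.3 ± 1.67 to 13.8 ± 0.569 FPKM. Rxra was called higher (difference 0.31, limma adjusted p = 0.0441), a call lost without any of WT replicates 1 to 3 (adjusted p = 0.132, 0.0789 and 0.0589), without Max-KO replicate 1 (0.103) or 3 (0.121), with no filter (0.0716), with the replicate block (0.0729) and under median-ratio scaling (0.16), and its sign turned under quantile normalization (−0.11).

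The isoprenoid branches, which draw on farnesyl diphosphate, had 6 of 14 members higher and 3 lower, which is about the share of all genes (43.0% and 23.2%). Pggt1b and Fntb, the beta subunits of the protein geranylgeranyl and farnesyl transferases, rose from 6.48 ± 0.940 to 17.5 ± 0.292 FPKM and from 31.0 ± 3.82 to 53.2 ± 6.32 FPKM (SD, n = 3). The Rab geranylgeranyl transferase subunits Rabggtb and Rabggta fell from 110.1 ± 9.50 to 58.2 ± 3.46 FPKM and from 27.7 ± 2.66 to 19.5 ± 1.36 FPKM. Among other sterol genes 4 of 12 tested fell and 3 rose, with a list median of −0.044, beside 23.2% and 43.0% of all genes. Scarb1, the receptor that takes up cholesterol from high density lipoprotein, went from 18.5 ± 1.42 to 8.10 ± 1.28 FPKM (difference −1.11 ± 0.12, limma adjusted p = 2.12e-04), and Cyb5b, a cytochrome b5, from 51.5 ± 0.810 to 38.7 ± 1.80 FPKM. The oxysterol binding protein Osbp rose from 11.7 ± 0.388 to 15.6 ± 0.825 FPKM, not called under quantile normalization (0.14, adjusted p = 0.129), and Erg28, a scaffold of the demethylation enzymes, from 30.7 ± 3.16 to 39.3 ± 3.09 FPKM, not called under median-ratio scaling (0.16, adjusted p = 0.208).

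Of the other fatty acid enzymes 12 of 26 tested were lower and 6 higher, beside 23.2% and 43.0% of all genes, and 6 were at least 2-fold lower, beside 4.86%. The list median was −0.28. Mid1ip1, which promotes the polymerization of acetyl-CoA carboxylase, fell from 17.5, 13.3 and 17.5 FPKM in WT to 3.31, 2.56 and 2.93 FPKM in Max-KO (difference −2.12 ± 0.13, limma adjusted p = 1.99e-05). Slc25a1, the carrier that exports citrate from mitochondria for Acly, fell from 81.9 ± 5.91 to 27.6 ± 1.45 FPKM (difference −1.53). Me1, a malic enzyme that yields NADPH, and Acsl6, an acyl-CoA synthetase, rose from 17.5 ± 0.916 to 33.7 ± 4.26 FPKM and from 1.80 ± 0.153 to 6.42 ± 0.499 FPKM (SD, n = 3). Genes that esterify fatty acids into phospholipid and triglyceride were higher in 7 of 10 tested cases and lower in 1, with a list median of 0.45, beside 43.0% and 23.2% of all genes. No difference between lists was tested. Dgat1, which makes triglyceride, rose from 14.1 ± 0.880 to 22.9 ± 0.237 FPKM and Agpat2, an acyltransferase, from 19.5 ± 2.22 to 32.96 ± 3.25 FPKM. Lpin1, a phosphatidate phosphatase, fell from 9.44 ± 0.600 to 5.29 ± 0.669 FPKM (difference −0.74, limma adjusted p = 7.88e-04).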

How the data were processed

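The 6 libraries hold 1 FPKM value per gene, which the authors deposited without a header. Per the submitters' processing notes, FastQC, HISAT2 2.1.0, RSEM and DESeq 1.26.0 were used with build GRCm38.p6, with no role or order given. The values were taken as FPKM. Library totals differ and the lowest values fall with transcript length, which does not by itself show how depth was scaled. Identifiers were paired with GENCODE M21 symbols, and 1153 assembled loci were left out. Values were fitted as log2(FPKM + 1) with limma 3.58.1 (trend, robust) in R 4.3.3. On simulated data, 82.0% to 96.0% of planted 2-fold and 4-fold changes were recovered per size in this comparison (14661 genes, 50 per size). Changes were planted only in genes of higher level, so this recovery does not cover low genes such as Abca1. All other genes were simulated without a change, and how often these were called is not given. Near-identical transcripts (95% identity over at least 200 bases) were found with BLAST 2.17.0. The members, lists and tests were chosen with earlier results of these data known. Values per library were given for members called with an absolute difference of at least 1, for regulators, for members called against their role and for each role's largest change, and for weak or uncalled members and Hmgcs1 and Scd1, added after their values were seen. From each further list up to 2 rises and 2 falls were named. The result for 1 gene that this rule names is not reported here. The alternatives were other pseudocounts, filters, scalings, moderation, gene sets, a replicate block and leaving out each library.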

Additional observations from a re-analysis of the deposited data

How the results depend on the processing

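Of the 34 members 28 kept their call in all 15 alternatives in which they were tested (Abca1 was not tested at the 5 FPKM filter). The exceptions were Acat2, Tm7sf2, Sc5d, Stard4, Acss2 and Elovl6, with values given above, and the cause was not tested. Leaving out 1 library at a time gave 26 to 28 members lower and 3 higher. The median log2 difference of the cholesterol branch was −1.103 with median-ratio scaling, −0.71 with values rescaled to TPM and −1.02 with quantile normalization, and −0.95 to −0.87 without 1 library. The median log2 difference of the fatty acid branch was −0.71, −0.32 and −0.68 under the same scalings, and −0.59 to −0.48 without 1 library. Other pathway genes had 35 lower and 19 higher under median-ratio scaling, and 37 lower and 18 higher under quantile normalization. The change in the paralog log2 ratio Srebf1 over Srebf2 was −0.089 under quantile normalization, −0.018 without WT replicate 3 and −0.064 without Max-KO replicate 3 (−0.064 to 0.11 over all libraries left out), so it had no stable sign. Rxra reversed to −0.11 under quantile normalization. Deviations of same-numbered libraries from their group means had correlations of −0.001, 0.016 and 0.086, against −0.082 to 0.065 for libraries of different numbers. With 3 libraries per group these correlations cannot show whether the numbers pair the samples. With the replicate block 27 members were lower and 3 higher, Tm7sf2 (−0.33, adjusted p = 0.0689) being the call lost, and the paralog ratios changed by −1.74, 0.46 and 0.033. FPKM gives no depth per gene, so no counting error is given.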

Other observations

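The stearoyl-CoA desaturase genes lie together on chromosome 19. Scd1 and Scd2 fell, and no other member of the family was called. Scd3 was listed at 2.75, 2.24 and 3.78 FPKM in WT and 4.0, 6.10 and 2.65 FPKM in Max-KO, with overlapping groups (difference 0.39, limma adjusted p = 0.225). Scd4 was at 0.00, 0.01 and 0.00 FPKM in WT and 0.18, 0.28 and 0.25 FPKM in Max-KO, under the filter and so not tested. Fatty acid binding proteins also parted: Fabp5 went from 50.9, 44.1 and 54.6 FPKM to 13.4, 15.7 and 24.5 FPKM, while Fabp3 went from 341, 354 and 385 FPKM to 505, 593 and 702 FPKM (limma adjusted p = 1.01e-03 and 1.42e-03). These genes were picked after their values were seen.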
